A study of Schizosaccharomyces pombe with 49 samples.

Results

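The gene mei4 (SPBC32H8.11) encodes the forkhead transcription factor of fission yeast meiosis, and its RNA was followed through 46 RNA sequencing libraries of Schizosaccharomyces pombe. It was found by its identifier, as 1 of 7015 genes and other features common to the count tables, and every one of the 46 libraries held reads of it (236 to 40236). The largest set is a course of 31 libraries of pat1-as2 diploids, with a red1 deletion (10 libraries), a pir1 deletion (10) or neither (wild type, 11). In pat1-as2 cells an altered Pat1 kinase can be blocked with the inhibitor 1-NM-PP1, and that block starts meiosis in a whole culture. Each strain was sampled in YEA medium at 26C (vegetative), after 4 h in EMM-N without nitrogen (starved), and at 1 to 8 h in EMM with 25 µM 1-NM-PP1, with 1 library per strain and time apart from a 2nd vegetative wild-type library. All 3 strains carry pat1-as2.

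A set of 8 libraries holds h90 cells, which switch mating type and can mate with each other, in YEA at 30C. They are tor2-ts6 cells with a ubi4, cul4 or ddb1 deletion, each with and without a pir1 deletion, then tor2-ts6 alone and wild type. The tor2-ts6 allele is a temperature-sensitive form of the TORC1 kinase. In 4 further h90 libraries, cells wild type elsewhere express GFP-Pir1-SD, GFP-Pir1-SA or GFP-Pir1 in EMM at 18C, or GFP-Pir1 in YEA at 30C. Another 3 libraries are of mat1Msmt0 cells at 29C, with a pir1 deletion in EMM or YEA, or wild type in EMM. For 2 strains of mat1Msmt0 cells in YEA at 30C, tor2-ts6 and the pir1 deletion, comparison tables of the authors were used in place of counts. No label says that libraries came from separate cultures. Apart from the 2 vegetative wild-type diploid libraries, those in a test also differ in hour, strain or background, and these stand in for replicates. A p-value here thus measures how steady a difference was over hours, strains or backgrounds. It does not measure the spread between replicates of a condition, and part of the spread may be technical.

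Mei4 acts in the middle of meiosis. Ste11, the regulator made on starvation, and Mei2, the RNA-binding protein held back by Pat1, set off the early programme, and Mei4 then binds FLEX elements in the promoters of genes for the meiotic divisions and for spores. During growth the mei4 transcript is removed: the YTH-family protein Mmi1 binds UNAAAC motifs in it, and the MTREC complex with Red1 and its partner Pir1 (also called Iss10, gene iss10) hands it to the nuclear exosome. Mei4 also acts on its own promoter, while the forkhead protein Fkh2 holds that promoter down early in meiosis.

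In the RefSeq annotation (ASM294v3), used here for sequence and position, mei4 lies on chromosome II from 1473068 to 1475285 on the plus strand as 1 exon of 2218 bases, with a coding part of 1554 bases. Which build the count tables rest on is not stated in the labels used. The gene upstream on the same strand, the kinase gene cdk9, shares 115 bases with the start of mei4, and the actin gene act1 lies downstream on the other strand, with 199 bases between the ends of these convergent genes. A pair of antisense non-coding RNAs, SPNCRNA.5201 and SPNCRNA.5202, overlap mei4 in that annotation. The motif TNAAAC, which is UNAAAC in RNA letters, was counted on the sense strand of spliced transcripts. The mei4 transcript holds 11 matches, of which 10 lie in the coding part and 1 after it. A coding stretch of 287 bases, transcript positions 658 to 944, holds 8 of them. It is printed because it is the densest 300-base window of the transcript, with the matches in capitals (chrII:1473725-1474011, plus strand).
mei4 coding stretch: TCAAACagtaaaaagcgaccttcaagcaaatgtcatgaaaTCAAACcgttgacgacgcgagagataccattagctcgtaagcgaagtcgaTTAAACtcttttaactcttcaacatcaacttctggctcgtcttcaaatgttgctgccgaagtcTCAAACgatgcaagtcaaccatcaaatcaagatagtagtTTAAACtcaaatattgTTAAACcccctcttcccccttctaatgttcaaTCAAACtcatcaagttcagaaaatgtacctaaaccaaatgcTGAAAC
Of 5145 coding transcripts, 3 (0.0583%) hold 8 or more matches within 300 bases, and they are mei4 itself and the Mmi1 targets spo5 and mug8. The median coding transcript has at most 2 in such a window, and the median of 18 other Mmi1 target genes is 5. The other forkhead genes have fewer in their densest window, with 3 in fkh2, 3 in sep1 and 2 in fhl1.

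**Figure D1:**
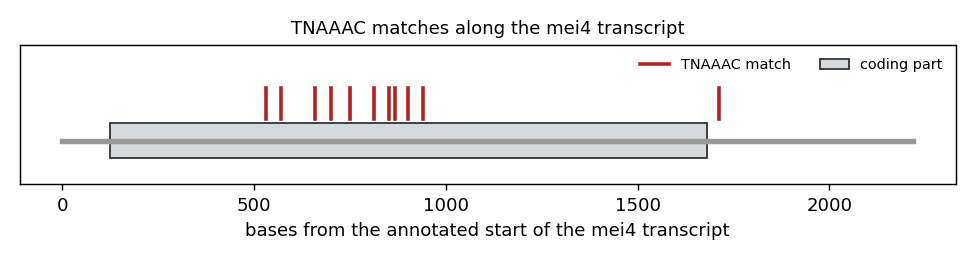
Matches to TNAAAC (red ticks) along the mei4 transcript, in bases from its annotated start, with the coding part as a grey box. Of 11 matches, 10 lie in the coding part, and 8 of these fall between positions 658 and 944.

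The promoter of mei4 carries the letters that Mei4 itself reads. The FLEX core was searched as GTAAACA and GTAAATA, on both strands, from 250 bases before to 50 after the annotated start. GTAAACA occurs once in the mei4 window, beginning 87 bases before the start, and GTAAATA occurs at 184 and at 79 bases before it. The windows below are 30 bases, written on the strand that reads GTAAACA, with both motifs in capitals. They are shown for mei4 and for 3 Mei4-dependent genes that hold GTAAACA and whose RNA is described further on. These are spo4, a kinase of the Cdc7 family needed for the second division, spo6, its regulatory subunit, and mes1, an inhibitor of the anaphase-promoting complex. The Mei4-dependent gene cdc25, also described further on, has neither motif in its promoter window.
mei4 (chrII:1472977-1473006, minus strand): aagaaaataccGTAAATAtGTAAACAcaag
spo4 (chrII:3826976-3827005, minus strand): gcaaatgaaaatGTAAACAaatgatgccaa
spo6 (chrII:3102989-3103018, minus strand): ctagtattgtttGTAAACAaaagcctcgcc
mes1 (chrI:1498816-1498845, minus strand): attggcaactcaGTAAACAtgcattgacaa
In mei4 a single base separates the 2 motifs. GTAAACA is present in the promoter window of 14 of 22 Mei4-dependent genes (63.6%) and of 846 of 5144 coding genes (16.4%), and in 7 of 22 early meiotic genes (31.8%). GTAAATA was not more frequent in the Mei4-dependent genes, with 3 of 22 (13.6%) against 833 of 5144 coding genes (16.2%). Either form is in 15 of 22 Mei4-dependent genes (68.2%) and in 1506 of 5144 coding genes (29.3%). ACGCGT, the letters of the MluI cell cycle box read by the MBF factor, is in 13 of 22 early meiotic genes (59.1%), in 166 of all coding genes (3.23%) and not in the mei4 window. A match is a run of letters and not a shown binding site, and some Mei4-dependent genes may have been recognised as such partly by it.

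Levels are given as reads per 1000000 gene reads, scaled between libraries of a set (scaled CPM). The libraries held 10157616 to 56454913 gene reads. The deleted genes were low in their deletions, with cul4 depending on the column read. In the strand column, iss10 stood at 0.763 to 4.04 scaled CPM in the pir1 deletion course, against 14.5 to 71.0 in the other course libraries, and red1 at 0.557 to 1.20 in its deletion, against 58.0 to 149. In the column without strand, used for mei4 in the course, more red1 reads were left. There red1 stood at 1.14 to 5.34 per kilobase of exon in its deletion, against 34.4 to 71.8. In that column iss10 stood at 0.551 to 2.56 per kilobase in the pir1 deletion course, against 10.7 to 53.3. In h90 cells iss10 stood at 3.10 to 16.3 where it was deleted, against 55.8 to 68.3, and ubi4 and ddb1 were lower in their deletions too. Reads of cul4 in its deletions, 71.7 and 82.4 scaled CPM, lay at or above the other h90 libraries (63.5 to 72.6) in the strand column and far below them (1.38 and 3.32, against 65.6 to 74.1) in the column without strand. The red1 deletion and wild-type course libraries put 9.21 to 16.7% of act1 reads on the wrong strand, apart from the 2nd vegetative wild-type library with 0.0167%, and the pir1 deletion course at most 0.794%. The pir1 deletion course therefore differs from the other courses in library strandedness as well as in strain, and these cannot be told apart. Fewer cells in meiosis and less mei4 RNA per cell cannot be told apart either, since all libraries are of bulk RNA.

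The course moved mei4 in all 3 strains, with a peak at a different hour in each. In the red1 deletion mei4 stood at 155 scaled CPM in vegetative cells, 160 when starved, 119 at 1 h, 169 at 2 h, 273 at 3 h, 371 at 4 h, 430 at 5 h, 412 at 6 h, 264 at 7 h and 194 at 8 h. In the pir1 deletion it stood at 36.5 in vegetative cells, 543 when starved, 779 at 1 h, 748 at 2 h, 747 at 3 h, 538 at 4 h, 344 at 5 h, 272 at 6 h, 193 at 7 h and 149 at 8 h. In wild type it stood at 16.7 and 19.0 in the 2 vegetative libraries, 70.7 when starved, 74.1 at 1 h, 202 at 2 h, 624 at 3 h, 896 at 4 h, 208 at 5 h, 78.9 at 6 h, 63.6 at 7 h and 62.2 at 8 h. The peak was thus at 5 h in the red1 deletion, at 1 h in the pir1 deletion and at 4 h in wild type. These hours held under total-count scaling, DESeq2 size factors and the strand column, each changed alone. With the strand column and total counts together, the wild-type peak was at 3 h (513, against 483 at 4 h). The red1 peak was then at 4 h (340, against 333 at 5 h), and the pir1 peak stayed at 1 h.

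**Figure D2:**
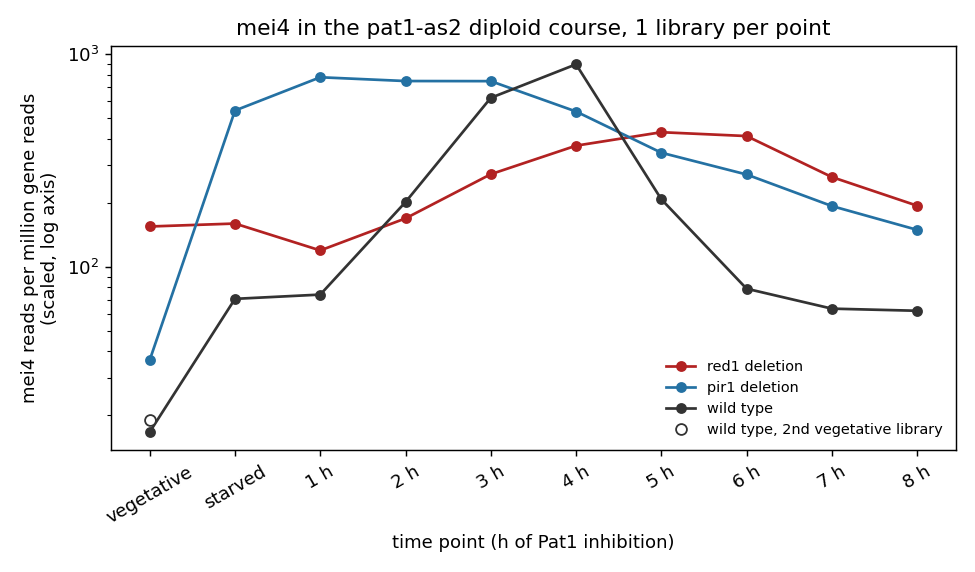
Scaled CPM of mei4 (log axis) by time in the red1 deletion, the pir1 deletion and wild type, with 1 library per point and the 2nd vegetative wild-type library as an open circle. The wild-type curve rises to 896 at 4 h and is back at 78.9 by 6 h, while the red1 deletion stays between 119 and 430 throughout and the pir1 deletion is already at 543 when starved.

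The shape of the peak differed as much as its hour. Its height was 430 scaled CPM in the red1 deletion and 779 in the pir1 deletion, which is 0.479 and 0.869 of the 896 in wild type. The order of the pir1 and wild-type peaks depended on the column and the scaling. In the strand column the pir1 deletion reached 650 scaled CPM at 1 h, against 594 at 4 h in wild type. Without scaling, in the column without strand, these were 781 and 733. The red1 peak stayed below that of wild type in both. Levels of at least 50% of the strain's own peak were seen at 5 times in the red1 deletion (3 to 7 h), at 5 in the pir1 deletion (starved to 4 h) and at 2 in wild type (3 and 4 h). The peak was 2.22-fold above the 8 h level in the red1 deletion and 5.22-fold above it in the pir1 deletion, against 14.4-fold in wild type. Neighbouring hours near the top were close in the deletions, with 430 and 412 at 5 and 6 h in the red1 deletion and 779, 748 and 747 at 1 to 3 h in the pir1 deletion. Without scaling they were close in wild type too, with 711 and 733 at 3 and 4 h. A single library stands behind each of these values, so their order within a strain has no replicate check. The test over the 3 strains cannot order them either: edgeR called 0 of 5687 genes in 7 of the 8 steps between neighbouring times from starved to 8 h (15 to 248 genes at an unadjusted p under 0.05), and mei4 had an adjusted p of at least 0.818 in all 8.

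Before induction, red1 cells already carried high mei4. The red1 deletion stood at 155 scaled CPM in vegetative cells, against 16.7 and 19.0 in wild type, a log2 difference of 3.20 and 3.02, and its starved library was level with its vegetative one (160 and 155). The pir1 deletion stood at 36.5 in vegetative cells against the same wild-type libraries, a log2 difference of 1.12 and 0.94, and rose with starvation by 3.90 on the log2 scale. The rise with starvation was 0.05 in the red1 deletion and 2.08 in wild type. Over all strains, mei4 was higher in starved than in vegetative cells by 1.91 ± 0.73 on the log2 scale (± is the SE; adjusted p = 0.0421; 20.3% of 5687 genes were called higher). This and every p-value below come from edgeR's quasi-likelihood test over all genes. That call was lost without the pir1 deletion strain (0.91, adjusted p = 0.459), without wild type (1.60, 0.229) and without either vegetative wild-type library (1.69 and 1.72, 0.108 and 0.102).

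Over the 10 times, the pir1 deletion raised mei4 by 1.48 ± 0.44 (log2 ± SE; adjusted p = 0.00893), a call made for 987 of 5687 genes tested (17.4%) in that direction. The red1 deletion gave 1.11 ± 0.44 (adjusted p = 0.0540), with 14.2% of genes called higher, and it passed with the strand column (1.19, 0.0422), by DESeq2 (1.13, 0.0136) and without the 1, 2, 3 or 4 h libraries (1.15 to 1.41, 0.0134 to 0.0463). The deletions were not shown to differ from each other over the course (red1 minus pir1, −0.37 ± 0.45, adjusted p = 0.509). With 1 library per strain and time, these p-values measure how steady a difference was over time.

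By phase, 1 call passed for each deletion. Before induction the red1 deletion raised mei4 by 2.43 ± 0.69 (log2 ± SE; adjusted p = 0.0375, with 4.51% of 5721 genes called higher). At 1 to 3 h it gave −0.44 ± 0.62 (0.707), at 4 to 6 h 0.62 ± 0.66 (0.533) and at 7 to 8 h 1.84 ± 0.77 (0.0887). The pir1 deletion gave 2.28 ± 0.74 before induction (0.0889) and raised mei4 by 1.80 ± 0.66 at 1 to 3 h (adjusted p = 0.0366, with 19% of genes called higher). It gave 0.36 ± 0.64 at 4 to 6 h (0.714) and 1.43 ± 0.76 at 7 to 8 h (0.229). Neither interaction of deletion with phase passed (adjusted p = 0.131 for red1 and 0.438 for pir1), so a call in one phase and not in another is not a shown difference between phases. The red1 call before induction was lost without the vegetative libraries (1.14, adjusted p = 0.693), without either vegetative wild-type library (0.0833 and 0.0926) and without the 2, 5, 7 or 8 h libraries (0.0645 to 0.0666). The pir1 call at 1 to 3 h was lost without the 1 h libraries (1.06, 0.303), the 2 h libraries (1.75, 0.160) and the 5, 7 or 8 h libraries (0.0529 to 0.0530).

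The differences at single hours changed sign within the middle phases. The red1 deletion minus wild type was 1.18 when starved, 0.69 at 1 h, −0.26 at 2 h, −1.19 at 3 h, −1.27 at 4 h, 1.05 at 5 h, 2.38 at 6 h, 2.05 at 7 h and 1.64 at 8 h on the log2 scale. The pir1 deletion minus wild type was 2.94 when starved, 3.39 at 1 h, 1.89 at 2 h, 0.26 at 3 h, −0.74 at 4 h, 0.73 at 5 h, 1.78 at 6 h, 1.60 at 7 h and 1.26 at 8 h. Only near the wild-type peak did either deletion lie below wild type, the red1 deletion at 2 to 4 h and the pir1 deletion at 4 h. In the starved libraries the summed levels of cell markers also differed between strains. The sum of 4 P-cell markers, none of them at 0, was 269.7 scaled CPM in the red1 deletion and 470.2 in the pir1 deletion, against 4435 in wild type. That of 7 M-cell markers, 3 of them at 0, was 1689 in the red1 deletion and 1187 in the pir1 deletion, against 8608 in wild type. Markers of mating or sporulating cells were instead highest in the pir1 deletion. Their sum was 1186 in the red1 deletion and 9742 in the pir1 deletion, against 1028 in wild type. The part of these markers in the mei4 result was not tested.

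**Figure D3:**
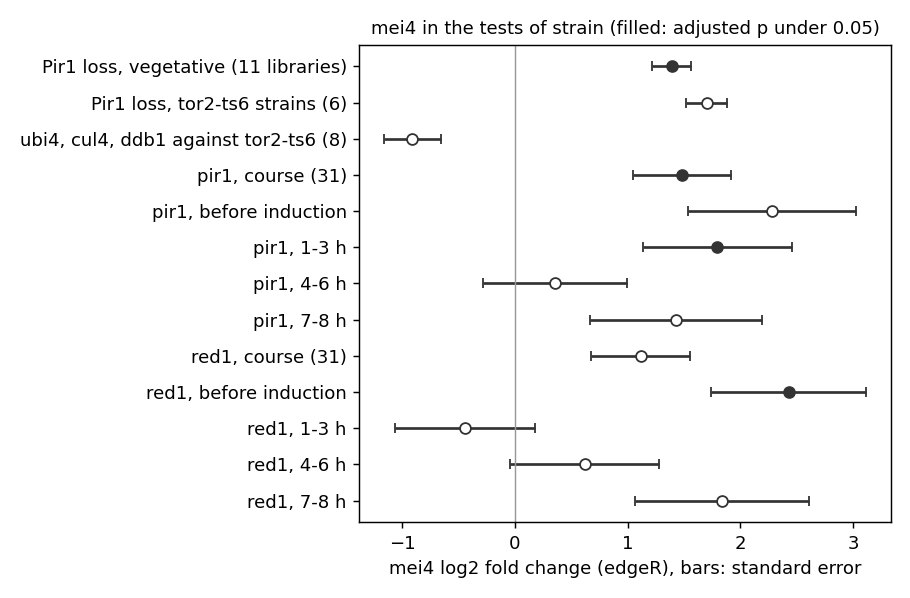
Log2 fold changes of mei4 in the edgeR tests of strain, with standard errors as bars and filled points where the adjusted p is under 0.05. The filled points are Pir1 loss in vegetative cells (1.39), the pir1 deletion over the course (1.48) and at 1 to 3 h (1.80), and the red1 deletion before induction (2.43).

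Genes that depend on Mei4 had their peaks shifted in the same direction as mei4, later in the red1 deletion and earlier in the pir1 deletion. The list holds 22 genes for the divisions and the spore, of which crs1 and rem1 are also Mmi1 targets, mde2 is also an early gene and agn2, eng2 and bgs2 are also spore wall genes. Counts for it in the course come from the strand column, a choice made after seeing the data because the column without strand loses reads of genes that overlap others. All 22 changed at least 2-fold between starved cells and 8 h in every strain. Their median hour of peak was 6 h in the red1 deletion and 2 h in the pir1 deletion, against 4 h in wild type. In the red1 deletion 19 of 22 peaked later than in wild type and 1 earlier, and in the pir1 deletion 20 of 22 peaked earlier and 0 later. The shift was not particular to them: of 505 genes that shared the wild-type peak hour of mei4, 91.5% peaked later in the red1 deletion and 88.9% earlier in the pir1 deletion.

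The kinase gene spo4 shows the pattern at a large amplitude. It reached 1670 scaled CPM (strand column) at 6 h in the red1 deletion and 978 at 2 h in the pir1 deletion, against 4243 at 4 h in wild type. When starved it stood at 34.0 in the red1 deletion and 301 in the pir1 deletion, against 6.41 in wild type. Its partner spo6 reached 3484 at 6 h in the red1 deletion and 3311 at 2 h in the pir1 deletion, against 6580 at 4 h in wild type. At 2 h spo6 stood at 96.9 in the red1 deletion and 3311 in the pir1 deletion, against 21.2 in wild type. The phosphatase gene cdc25, which activates the Cdc2 kinase, peaked with mei4 in each strain, at 274 scaled CPM at 5 h in the red1 deletion and 379 at 1 h in the pir1 deletion, against 323 at 4 h in wild type. The spore-release glucanase genes agn2 and eng2, named after their values were seen, peaked at 8 h, the last time sampled, in all 3 strains.

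In wild type 15 of the 22 peaked in the same hour as mei4 and 6 later, whereas in each deletion 4 peaked in the same hour as mei4 and 17 later. Of the 505 genes with the wild-type peak hour of mei4, 126 peaked with it in the red1 deletion and 103 in the pir1 deletion, and 336 and 370 later, so this too was general. At 1 to 3 h the pir1 deletion raised 18 of the 22 and lowered 0 (median 2.84 on the log2 scale, against −0.09 for all 6611 genes tested, of which 20.2% were called higher). Among them spo6 rose by 5.33 ± 0.96 (adjusted p = 0.000407), mes1 by 2.48 ± 0.65 (0.00581) and cdc25 by 2.12 ± 0.65 (0.0136), while spo4 gave 3.47 ± 1.56 (0.0751). In the same hours the early meiotic genes were lower, with 11 of 22 called lower (27.3% of all genes) and 0 higher (median −1.04). Of 18 other Mmi1 target genes, 1 was called higher and 5 lower (median −0.73). Before induction the red1 deletion raised 3 of 22 Mei4-dependent genes (median 1.34, with 4.07% of all genes called higher) and 11 of 18 other Mmi1 targets (median 2.01), among them the cohesin gene rec8 by 3.30 ± 0.66 (adjusted p = 0.00702).

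**Figure D4:**
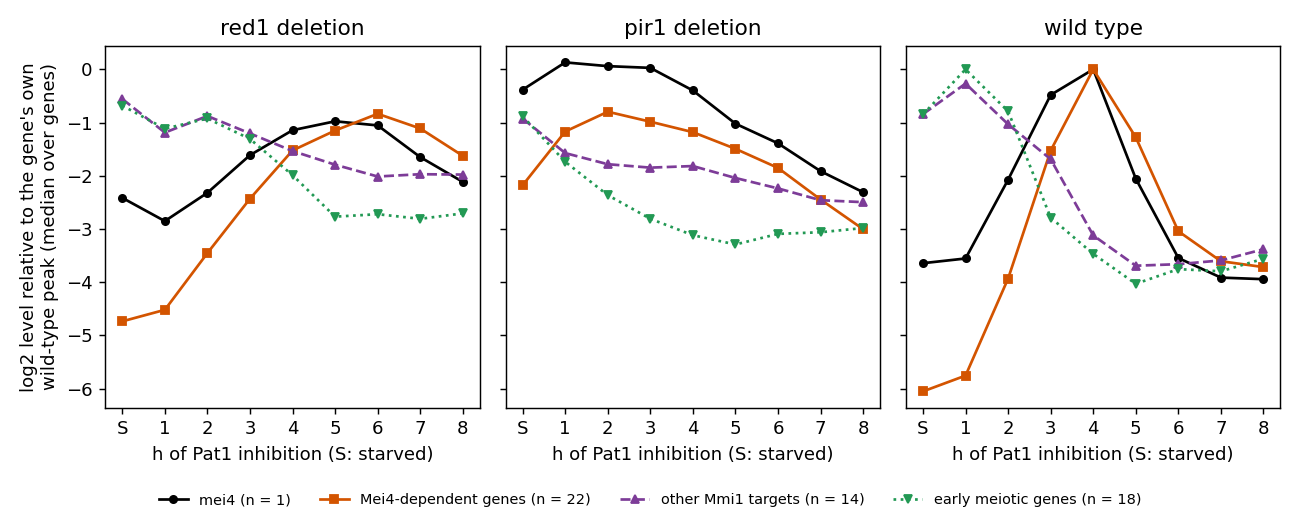
Level of mei4 and medians of 3 gene lists at each time, on the log2 scale relative to each gene's own wild-type peak, in the red1 deletion, the pir1 deletion and wild type (strand column, S for starved). The Mei4-dependent genes peak at 6 h in the red1 deletion (−0.84) and at 2 h in the pir1 deletion (−0.80), against 4 h in wild type (0).

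The main regulators above mei4 did not pass the test in the pir1 deletion at 1 to 3 h. Transcripts of ste11 were highest when starved in each strain, at 268 scaled CPM (strand column) in the red1 deletion and 158 in the pir1 deletion, against 496 in wild type. Those of mei2 stood at 1299 when starved in the red1 deletion and 1656 in the pir1 deletion, against 1711 in wild type. At 1 to 3 h the pir1 deletion gave 0.04 ± 0.36 for ste11 (adjusted p = 0.937) and −0.31 ± 0.33 for mei2 (0.454). Of 21 upstream and RNA control genes 4 were called higher and 5 lower there, one of these being the deleted iss10, with 20.2% of all genes called higher and 27.3% lower. The 4 include rep1 and cuf2: rep1, a subunit of the MBF transcription complex, rose by 1.21 ± 0.39 (0.0189), and cuf2, a partner of Mei4 at its target genes, rose by 4.63 ± 1.15 (0.00393). The cuf2 peak moved in the same direction as that of mei4. It reached 258 scaled CPM at 6 h in the red1 deletion and 322 at 2 h in the pir1 deletion. In wild type it reached 393 at 4 h, the hour of mei4. In the deletions mei4 peaked earlier than cuf2, at 5 h and 1 h. Shifts in these directions were general among genes with the wild-type peak hour of mei4. Before induction the red1 deletion raised mei3, the inhibitor of Pat1, by 2.18 ± 0.64 (0.0446). That phase joins vegetative and starved cells, and mei3 was low in vegetative cells. Per kilobase of exon, without strand, it stood there at 1.19 in the red1 deletion, against 0.852 and 0.606 in wild type. In the single starved libraries it stood at 36.8 in the red1 deletion and 4.44 in wild type.

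Among the 4 forkhead genes, mei4 had the widest range and was not the highest of them in most vegetative libraries. Per kilobase of exon, vegetative mei4 stood at 69.8 scaled CPM in the red1 deletion and 16.4 in the pir1 deletion, against 7.54 and 8.58 in wild type. In those libraries fkh2 stood at 37.8 in the red1 deletion and 27.2 in the pir1 deletion, against 37.3 and 21.6 in wild type. Among the vegetative diploid libraries mei4 was thus above fkh2 in the red1 deletion and below it in the others. The h90 libraries in YEA lay on both sides, with mei4 above fkh2 in tor2-ts6 and below it in wild type. At the wild-type peak of mei4 the levels per kilobase were 404 for mei4, 178 for fhl1, 95.6 for fkh2 and 10.5 for sep1. The gene fkh2 peaked before mei4 in wild type, at 161 per kilobase at 2 h, and at 2 h mei4 stood at 91.0.

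The genes most like mei4 in the course were found by Pearson's r of log2 scaled CPM over the 31 libraries, given as a description. The 8 highest with a symbol were cut4 (0.94), nuc2 (0.94), ynd1 (0.94), fhl1 (0.94), lsb1 (0.93), mok13 (0.93), man1 (0.93) and apc5 (0.93). The genes cut4, nuc2 and apc5 encode subunits of the anaphase-promoting complex, mok13 an alpha-glucan synthase family member, and man1 a protein of the inner nuclear membrane. These libraries share strains and times, and r for the 8 fell to 0.40 to 0.65 over the 15 libraries outside the course. In the pir1 deletion libraries alone 3 of the 8 remained among the 8 closest, in wild type alone 3, and in the red1 deletion libraries alone 0.

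In vegetative cells, mei4 was higher without Pir1 in every background measured. In tor2-ts6 ubi4 cells mei4 stood at 98.3 scaled CPM without Pir1 and 35.9 with it, in tor2-ts6 cul4 cells at 130 and 26.6, and in tor2-ts6 ddb1 cells at 93.6 and 35.4. In mat1Msmt0 cells in EMM it stood at 37.4 without Pir1 and 17.9 with it, and in the vegetative diploids at 36.5 without Pir1, against 16.7 and 19.0. The levels without Pir1 lie above those with it in all 5 backgrounds. Tested over these 11 libraries with the background as a block, Pir1 loss raised mei4 by 1.39 ± 0.17 (log2 ± SE; adjusted p = 0.0209, with 0.404% of 6438 genes called higher). The call was lost without the ddb1 pair (1.39, adjusted p = 0.152), the ubi4 pair (1.38, 0.132) or the mat1Msmt0 pair (1.47, 0.0582).

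Within tor2-ts6 alone, 6 libraries gave 1.70 ± 0.18 (adjusted p = 0.0501, with 0.426% of 6331 genes called higher), which passed by DESeq2 (1.71, 2.74e-12), with the column without strand (1.60, 0.0338) with no filter (1.70, 0.0417) and without the cul4 pair (1.43, 0.00294). The single pairs were 1.45 for ubi4, 2.28 for cul4 and 1.40 for ddb1, with counting intervals (95%) of 1.29 to 1.62, 2.11 to 2.47 and 1.25 to 1.55. Ratios of 1 or more were held by 1.04%, 5.13% and 1.36% of genes in these pairs. The mat1Msmt0 pair gave 1.06 (0.91 to 1.21), with 0.927% of genes at 1 or more. Such intervals cover counting error only, and a pair of single libraries has no replicate check. The authors' deposited table for the pir1 deletion in mat1Msmt0 cells in YEA at 30C gives a log2 fold of 2.10 for mei4 (q = 7.73e-46), with 6.68% of 6493 genes at 1 or more and a q under 0.05. That table gives −6.95 for the deleted gene iss10, so its negative values are lower in the deletion.

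Few genes were called in this test, so a count of 0 among the Mei4-dependent genes is near the share of all genes (0.404% called higher and 0.0155% lower). Of 22 tested, 0 passed on loss of Pir1 in either direction (median 0.10, against −0.03 for all genes), while 6 of 18 other Mmi1 targets and 5 of 22 early meiotic genes rose (medians 1.43 and 0.42). Over all 6438 genes the same test made 27 calls at the adjusted threshold and gave 392 genes with an unadjusted p under 0.05. In the single pairs, 2 of 15 Mei4-dependent genes with enough reads were at 1 or more in ubi4, 1 of 17 in cul4, 1 of 17 in ddb1 and 1 of 15 in mat1Msmt0, where 1 was at −1 or less (0.652% of all genes). The member crs1, a meiotic cyclin gene that is also an Mmi1 target, was at 1.14, 2.45, 2.08 and 1.04 in these pairs, and gave 1.46 ± 0.27 over the 11 libraries (adjusted p = 0.107). It is named after its values were seen. For spo6 the change was 0.34 ± 0.30 (adjusted p = 0.851), for mes1 0.25 ± 0.13 (0.822), for cdc25 −0.00 ± 0.08 (0.999) and for spo4 0.04 ± 0.43 (0.991). In tor2-ts6 cul4 cells spo4 stood at 3.25 scaled CPM without Pir1 and 3.15 with it, while mei4 stood at 130 and 26.6. Among the regulators, rep1 rose by 0.92 ± 0.09 (adjusted p = 0.00682), and ste11 (0.11 ± 0.16, 0.899) and mei2 (0.09 ± 0.19, 0.945) did not pass.

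The tor2-ts6 allele gave higher mei4 in h90 cells, together with the genes below it. Mei4 stood at 60.7 scaled CPM in tor2-ts6 and 21.8 in wild type (716 and 236 reads), a log2 ratio of 1.47 with a counting interval of 1.26 to 1.69. It is 1 of 963 genes at a ratio of 1 or more (17.1% of the 5642 that reached 50 reads in 1 of the libraries), and total-count scaling gives 1.86. Of 21 Mei4-dependent genes with enough reads, 18 were higher by that rule and 0 at −1 or less (median 2.95, against −0.01 for all genes, of which 14.5% were at −1 or less). Transcripts of spo4 stood at 18.5 scaled CPM in tor2-ts6 and 0.278 in wild type, and those of spo6 at 59.2 and 3.70. Early meiotic genes were higher too, 18 of 22 with 1 lower (median 2.63), and mei2 stood at 2674 in tor2-ts6 and 13.6 in wild type. Markers of mating cells moved in the same libraries: the sum of 7 M-cell markers, with mat1-Mc and mat1-Mi at 0 in all libraries, was 4760 in tor2-ts6 and 103 in wild type, and the sum of 4 P-cell markers was 4530 and 49.5. Their part in the mei4 difference was not tested.

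In mat1Msmt0 cells, the authors' deposited table for tor2-ts6 in YEA at 30C gives a log2 fold of 1.52 for mei4 (q = 1.12e-18), with 23.2% of 6495 genes past 1 and 12.9% past −1 at a q under 0.05. It gives 6.25 for mei2 and 3.97 for ste11. The Mei4-dependent genes named here were not all on that side: the authors' deposited table gives −2.20 for spo4 (q = 7.45e-08) and −1.52 for spo6 (q = 9.99e-09), but 1.68 for mes1 and 1.39 for cdc25. The library that table compares with is not named in it, and no deleted gene shows its direction, so these signs are the authors'.

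Deleting ubi4, cul4 or ddb1 in tor2-ts6 left mei4 lower in each single pair, without passing the test. Ubi4 is polyubiquitin, and Cul4 and Ddb1 are the scaffold and adaptor of a ubiquitin ligase. Levels were 35.9 scaled CPM in tor2-ts6 ubi4, 26.6 in tor2-ts6 cul4 and 35.4 in tor2-ts6 ddb1, against 60.7 in tor2-ts6, with log2 ratios of −0.75, −1.18 and −0.77. Over 8 libraries the deletions gave −0.91 ± 0.26 (log2 ± SE; adjusted p = 0.718), where edgeR called 0 of 6404 genes (0% in either direction, 252 at an unadjusted p under 0.05) and the single tor2-ts6 library is assumed to vary like the others. Only the cul4 pair passed a log2 ratio of −1 or less, as did 5.72% of 5872 genes in it. The levels of the 3 deletions stayed above the 21.8 of wild type, by log2 ratios of 0.71, 0.28 and 0.69. With Pir1 also lost, mei4 lay above tor2-ts6 alone, at 98.3, 130 and 93.6 scaled CPM.

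Many genes below mei4 were lower in these pairs as well. Of 21 Mei4-dependent genes, 13 were at a ratio of −1 or less in ubi4 (8.57% of all genes), 10 in cul4 (5.72%) and 9 in ddb1 (2.3%), with medians of −1.54, −0.81 and −0.69. At 1 or more were 0 in ubi4, 2 in cul4 (9.2% of all genes), which are mde6 and mde7, and 1 in ddb1 (5.22%), which is mde6 at 1.19. Both are named after their values were seen. For spo6 the ratios were −5.04, −2.79 and −4.03. The regulators mei2 (−1.35, −2.89 and −1.46) and ste11 (−1.08, −1.84 and −0.94) were lower beside them. The summed M-cell markers stood at 2246, 595 and 1355 scaled CPM in ubi4, cul4 and ddb1, against 4760 in tor2-ts6, and their part was not tested.

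**Figure D5:**
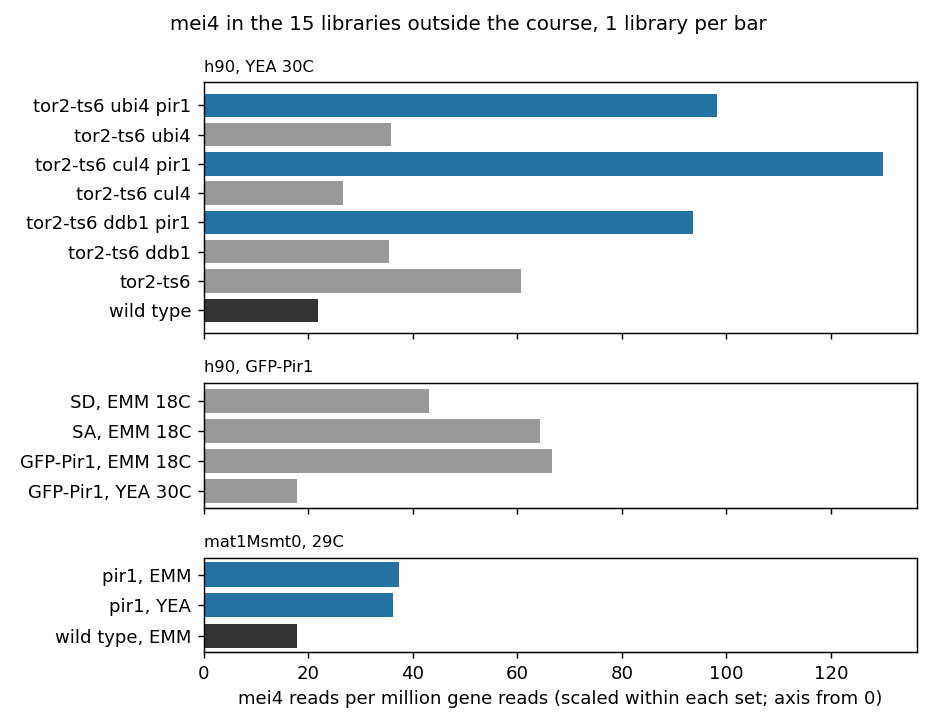
Scaled CPM of mei4 in the 15 libraries outside the course, with 1 library per bar, scaled within each set. Bars for cells without Pir1 (blue) reach 93.6 to 130 in h90 cells, against 26.6 to 60.7 in tor2-ts6 strains that keep it (grey) and 21.8 in wild type (black).

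With GFP-Pir1-SD mei4 was lower than with the other forms. In EMM at 18C mei4 stood at 43.1 scaled CPM with SD and 64.4 with SA, against 66.7 with GFP-Pir1. The log2 ratio of SD to GFP-Pir1 was −0.63 (counting interval −0.73 to −0.54), that of SA to GFP-Pir1 −0.05 (−0.13 to 0.03), and that of SD to SA −0.58 (−0.67 to −0.49). The SD value was lower beyond counting error and under the size rule of 1, and the SA interval includes 0. Genes below mei4 were lower by more: 16 of 22 Mei4-dependent genes were at −1 or less with SD (3.66% of all genes; median −1.40) and 0 with SA (0.522% of all genes; median 0.05). Transcripts of spo4 stood at 11.1 scaled CPM with SD and 49.8 with SA, against 47.8 with GFP-Pir1. The sum of 3 markers of mating or sporulating cells was 4817 with SD and 10335 with SA, against 8723 with GFP-Pir1. Of these markers, isp3 had a log2 ratio of SD to GFP-Pir1 of −0.95, psy1 −0.12 and spo15 0.0007. The sum of M-cell markers was 1089 with SD and 1139 with SA, against 1009 with GFP-Pir1. That of P-cell markers was 636 with SD and 717 with SA, against 607 with GFP-Pir1. The part of these markers was not tested.

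A larger ratio separated the libraries that differ in medium and temperature. GFP-Pir1 cells stood at 66.7 scaled CPM in EMM at 18C and 17.9 in YEA at 30C, a log2 ratio of 1.90 (counting interval 1.75 to 2.05; 12.1% of 5951 genes reached 1). Total-count scaling gives 2.06. Of 22 Mei4-dependent genes 17 passed 1 and 1 passed −1 (median 4.54), while 7.97% of all genes passed −1. The summed M-cell markers stood at 1009 scaled CPM in EMM at 18C and 214 in YEA at 30C, and the P-cell markers at 607 and 81.5. Markers of mating or sporulating cells summed to 8723 and 868, and only isp3 among them was higher in EMM at 18C. The log2 ratio was 8.13 for isp3, −0.60 for psy1 and −0.24 for spo15. The part of all these markers in the mei4 difference was not tested. In mat1Msmt0 cells without Pir1, the change of medium alone at 29C gave 37.4 in EMM and 36.3 in YEA, a ratio of 0.05 with an interval of −0.12 to 0.21. In that pair mei2 stood at 339.6 in EMM and 5.76 in YEA, and ste11 at 236 and 18.2, so mei4 was level where both regulators were not. No wild-type mat1Msmt0 library in YEA was analysed here, so the same change with Pir1 present has no value.

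Reads on the other strand of mei4 were counted separately in the well-stranded libraries, where act1 had at most 0.124% of its reads on its other strand. In h90 tor2-ts6 cells without Pir1 their share was 0.0851% in ubi4, 5.25% in cul4 and 3.24% in ddb1. With Pir1 it was 0.716% in tor2-ts6 ubi4, 11.6% in tor2-ts6 cul4, 11.2% in tor2-ts6 ddb1 and 1.24% in tor2-ts6, against 14.5% in wild type (40 of 276 reads). In reads, the other strand held 3, 40, 66 and 9 in those 4 strains with Pir1, against 40 in wild type. Without Pir1 it held 1 in ubi4, 93 in cul4 and 45 in ddb1, so in cul4 the reads were more though their share was lower. These counts are small, and the share moves with the sense reads below it. With both strands counted, the tor2-ts6 to wild-type ratio of mei4 was 1.26.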

How the data were processed

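The submitters' processing notes name Trimmomatic and STAR, with no version; the build and annotation were not stated. The authors deposited raw counts per gene, without strand and for each strand. The strand column was used where it held at least 4 times the other in every library of a set, otherwise the column without strand (the course). The authors' deposited comparison tables give log2 fold changes and q-values per the file headers; 4 further columns of values, tied to no sample, were left aside. Entries naming no gene were left out. Of 7015 features, 6845 (97.6%) matched RefSeq names; sme2, mei5, mat1-Pc and mat1-Pm in the lists did not.

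R 4.3.3 and edgeR 4.0.16 were used (TMM, filterByExpr, glmQLFit, glmQLFTest, Benjamini-Hochberg over all genes, threshold 0.05), checked on simulated counts. The course was fitted with time as a block and strain, or strain within phase, as terms; steps in time had strain as a block. Pairs of single libraries give log2 ratios with a prior count of 2 and no p. DESeq2 1.42.0, size factors, no filter, other columns, a prior count of 0.5 and left-out libraries were alternatives. Named genes are mei4, forkhead genes, fixed regulators and targets, the 8 most like mei4, list members and neighbours. Members and lists were chosen with earlier results of these data known.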

Additional observations from a re-analysis of the deposited data

Results flagged for a closer look

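The red1 and pir1 deletions moved mei4 in opposite directions from 1 to 3 h to 4 to 6 h of the course. In the red1 deletion every library at 4 to 6 h (371 to 430 scaled CPM) lay above every library at 1 to 3 h (119 to 273), a difference of means of 1.19 on the log2 scale. In the pir1 deletion every library at 4 to 6 h (272 to 538) lay below every library at 1 to 3 h (747 to 779), a difference of −1.04. In wild type the hours overlapped (78.9 to 896 at 4 to 6 h and 74.1 to 624 at 1 to 3 h), a difference of 0.22. The difference between the deletions was not tested.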

How the results depend on the processing

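Over 28 edgeR results for mei4 and 369 settings, 327 kept direction and side of the threshold, 19 lost a call, 16 gained one and 7 turned direction; all 19 losses and 7 turns came from leaving out libraries. Among 13 pairs, 62 of 65 settings stayed and 3 moved. Calls gained by DESeq2 were Pir1 loss in tor2-ts6 strains (1.71), red1 over the course (1.13), 7 to 8 h against 4 to 6 h (−1.48), red1 at 7 to 8 h (1.86), pir1 before induction (2.31) and the red1 interaction (adjusted p = 0.0436). Pir1 loss in tor2-ts6 strains also passed without strand (1.60) and without a filter (1.70), and red1 over the course with the strand column (1.19). Total-count scaling moved tor2-ts6 against wild type to 1.86, EMM against YEA to 0.22 and EMM at 18C against YEA at 30C to 2.06. Of the 8 genes most like mei4, 0 stayed in red1 libraries alone, 3 in pir1 and 3 in wild type. Leaving out libraries gave 1.20 to 1.54 for Pir1 loss in vegetative cells, 1.43 to 1.85 within tor2-ts6 (called without the cul4 pair), and 0.70 to 1.41 for red1 over the course. It gave 0.91 to 3.12 for starved against vegetative, −0.12 to 0.39 for 1 h against starved, −0.074 to 0.52 for 4 against 3 h, −0.44 to 0.71 for 4 to 6 against 1 to 3 h, and −1.74 to −0.997 for 7 to 8 against 4 to 6 h. For red1 it gave 1.14 to 3.14 before induction, −0.82 to 0.13 at 1 to 3 h, −0.18 to 1.67 at 4 to 6 h and 1.63 to 2.06 at 7 to 8 h. For pir1 it gave 1.06 to 2.62 at 1 to 3 h and −0.16 to 1.19 at 4 to 6 h. The pir1 call over the course held in each of 12 such settings. With the column without strand 11 Mei4-dependent genes could be tested, and 9 rose in the pir1 deletion at 1 to 3 h. Causes were not tested. Libraries were matched by hour or by background, which were blocks in the tests. No paired analysis by replicate number was possible because the groups share fewer than 2 such numbers. Single libraries per group and time limit every pair to counting error.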
